A study of Mus musculus with 10 samples.

Results

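Integrins, laminins and collagens are the cell-surface receptors and the main proteins of the matrix on which stem cells sit. Their genes were taken by gene symbol alone: numbered integrin alpha chains and Itgav, numbered integrin beta chains, laminin chains and collagen chains. Integrin alpha chains named by another letter, such as Itgam, were left out. No measured value entered this rule, though earlier results of these data were known when it was set. The rule found 72 genes among the 18193 with a symbol of their own on the platform: 12 integrin alpha chains, 8 integrin beta chains, 10 laminin chains and 42 collagen chains. Values were expression levels on the log2 scale from 10 Affymetrix arrays, and each gene was read from its brightest probe set. The arrays fell into groups by sample title. They were 3 arrays labelled iPS-derived NSC, neural stem cells (NSC) differentiated from induced pluripotent stem (iPS) cells made with Oct4 alone; 3 labelled iPS, the iPS cells themselves; and 4 labelled brain NSC, neural stem cells from adult mouse brain. All cells came from mice with an Oct4-eGFP transgene (OG2) and the Rosa26 neo/lacZ marker, crossed with ICR females, and the iPS cells, like the NSC made from them, came from brain NSC infected with a pMX retroviral vector for mouse Oct4. The labels name no vector for brain NSC. Per the labels, iPS cells were kept on irradiated mouse embryonic fibroblasts (MEF) with LIF, and GFP-positive colonies were picked by hand before expansion. Neither the number of clones nor the number of mice behind a group, nor whether replicates were separate cultures, is given in the sources used here, so p values measure a spread between arrays that may be technical.

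Integrins are pairs of an alpha and a beta chain that span the cell membrane, bind matrix outside the cell and connect to the actin cytoskeleton inside it. Laminins are trimers of an alpha, a beta and a gamma chain and, with type IV collagen, form the sheets of basement membranes, whereas fibrillar collagens make the fibres of connective tissue and are the main product of fibroblasts. Neural stem cells in the adult brain touch laminin-rich matrix through alpha6 beta1 integrin, and the early embryo lays down laminin and type IV collagen as its first basement membranes.

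The group labels did not match the marker genes. The pluripotency gene Pou5f1, which encodes Oct4, averaged 13.29 over the arrays labelled iPS-derived NSC, 4.66 over those labelled iPS and 4.55 over brain NSC. Fabp7, a gene of neural stem cells, averaged 4.43, 14.17 and 14.45 in the same order of groups. All 8 pluripotency markers rose and all 8 neural stem cell markers fell in the arrays labelled iPS-derived NSC against each of the other groups. Every direction below follows the labels as deposited, and each group is called by its label. Replicate 4 of brain NSC stood apart from its group: across genes it correlated with replicates 1 to 3 at 0.990 to 0.993 (Pearson), and with the arrays labelled iPS at 0.992, while replicates 1 to 3 correlated with each other at 0.996 to 0.998. Results that turn on that array are given with and without it. Between 4.22 and 4.41 lay the lower quartile of the probe sets of an array, and 7 of the 72 genes were under it on all 10 arrays. The table gives no detection calls, so genes near this floor cannot be called absent.

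In the arrays labelled iPS-derived NSC, set against those labelled iPS, 12 of the 72 genes rose and 9 fell. To be called, a gene needed an adjusted p from limma under 0.05 together with a change of 2-fold or more. Those 21 genes made up 29.2% of the family, against 25.3% of all genes tested (10.8% higher and 14.4% lower), so the number that changed was near the background of this comparison. Largest among the falls were Itgb8 and Col4a5, and largest among the rises Lama1 and Col18a1. The median difference was 0.14 over the family and 0.12 over all genes, a shift over all genes that quantile normalization reduced to 0.08 and median centring to 0.07.

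Set against brain NSC, the arrays labelled iPS-derived NSC again had 12 genes called higher and 9 called lower, 29.2% of the family against 25.4% of all genes (11.3% higher and 14% lower). The median difference was 0.21 over the family and 0.13 over all genes, with 0.09 and 0.10 for all genes under the same scalings. Both comparisons use the same 3 arrays labelled iPS-derived NSC, so their likeness is not independent evidence. Between the arrays labelled iPS and brain NSC, 5 genes rose and 2 fell, 9.72% of the family against 1.84% of all genes (0.951% higher and 0.89% lower). The 72 genes thus had a larger share of calls than all genes in that last comparison, a description for which no test of the list was run. Without brain NSC replicate 4, 4 of the 72 rose and 1 fell there, while 537 of the 18193 genes were called in place of 335.

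**Figure D1:**
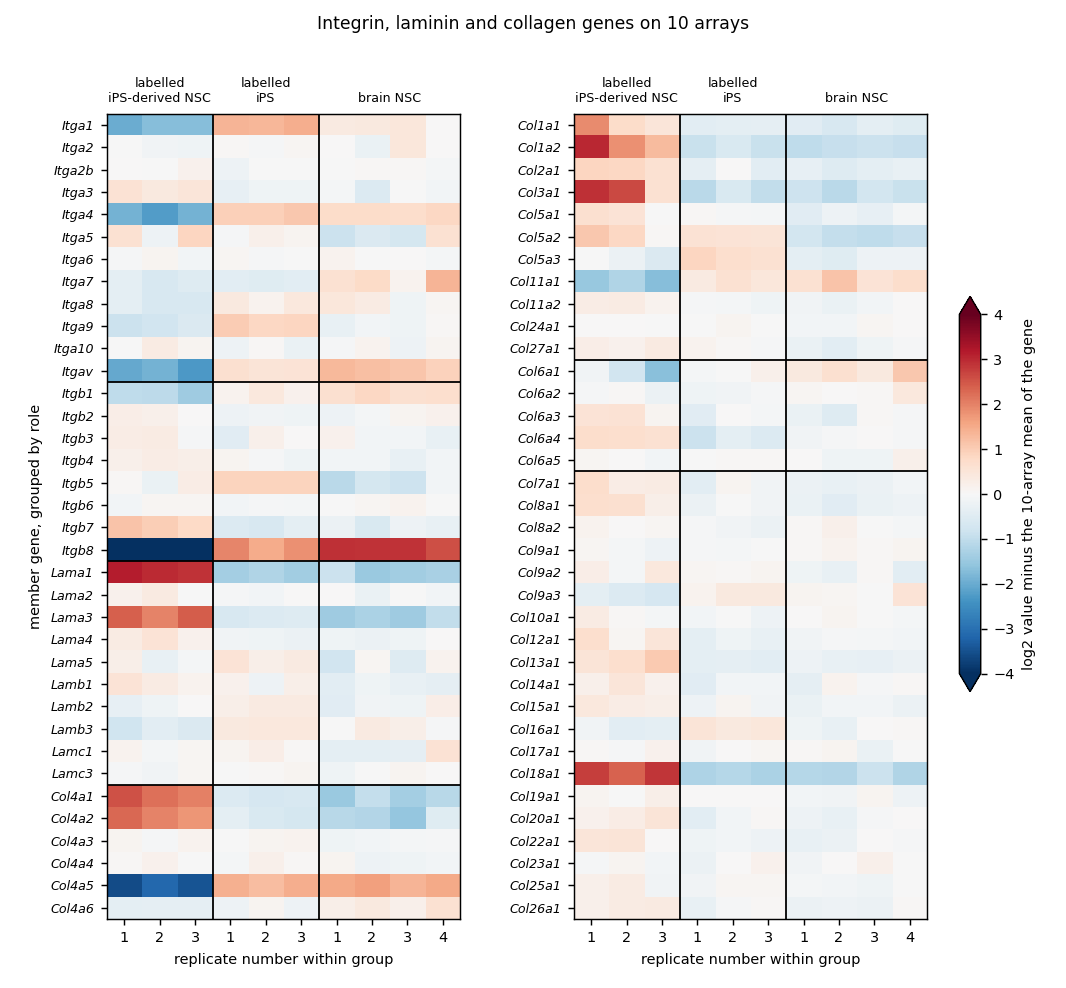
Expression of the genes on each of the 10 arrays, as log2 values relative to the gene's own mean over the arrays, with the arrays labelled iPS-derived NSC at the left, those labelled iPS in the middle and brain NSC at the right. The 3 arrays at the left differ from the other 7 for Itgb8, Col4a5, Lama1 and Col18a1, while Itga6 is nearly even over all 10.

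**Figure D2:**
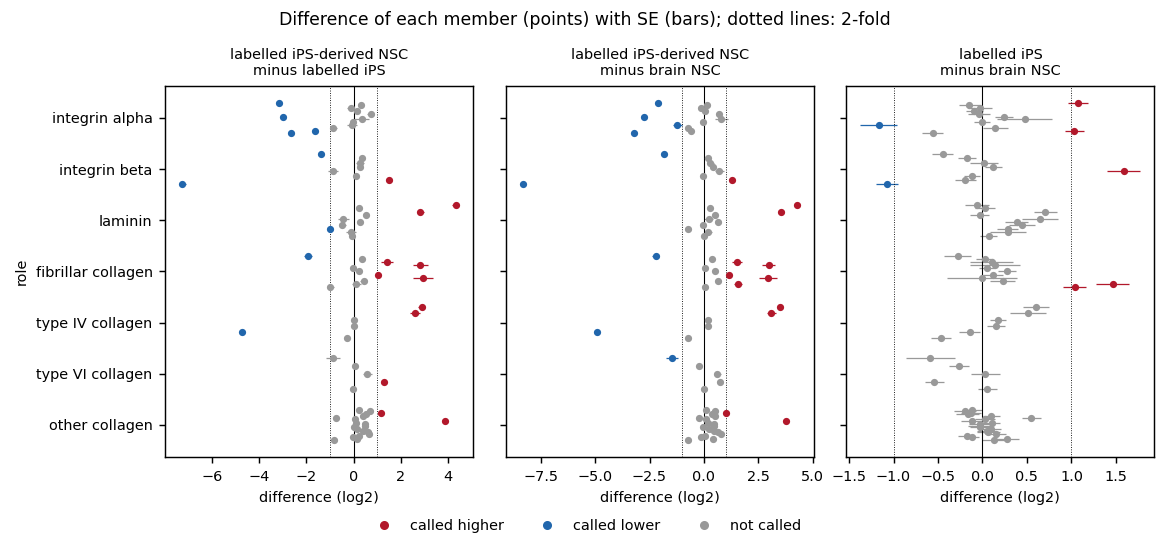
Difference of each gene on the log2 scale in the 3 comparisons, grouped by role, with called genes marked. Each panel has its own scale, bars are SE and dotted lines mark 2-fold. Against the arrays labelled iPS, the called collagens are 9 above 0 and 2 below, and the called integrin alpha chains all lie below 0.

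Among the integrin alpha chains, the receptors' ligand-choosing parts, 4 of 12 fell and 0 rose in the arrays labelled iPS-derived NSC against those labelled iPS, with 2 higher and 5 lower at an unadjusted p under 0.05 in limma. Against brain NSC 4 fell and 0 rose, with 2 higher and 6 lower at an unadjusted p under 0.05. The 33.3% called lower stood against 14.4% of all genes in the first comparison and 14% in the second. No test of these shares was run, and both comparisons use the same 3 arrays labelled iPS-derived NSC. Itgav, the chain that binds fibronectin and vitronectin with several beta partners, had 8.98, 9.14 and 8.71 on the arrays labelled iPS-derived NSC, 11.67, 11.54 and 11.55 on those labelled iPS and 12.31, 12.21, 12.11 and 11.95 on brain NSC arrays. The groups did not overlap, and the 3 arrays labelled iPS-derived NSC were the lowest of the 10. Its difference was -2.65 ± 0.12 (SE, limma) against the arrays labelled iPS, a 6.26-fold fall with an adjusted p of 3.14e-10, and -3.21 ± 0.12 against brain NSC, with 1.84e-11. Other probe sets of Itgav gave between -2.36 and -0.05 in the first of these comparisons.

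Itga4, whose chain binds VCAM-1 and fibronectin, stood at 4.74, 4.38 and 4.74 on the arrays labelled iPS-derived NSC, 7.56, 7.58 and 7.69 on those labelled iPS and 7.34, 7.36, 7.33 and 7.46 on brain NSC arrays. The arrays labelled iPS-derived NSC were again below all the others, which lay close together. The gene fell by 2.99 ± 0.11 against the arrays labelled iPS (adjusted p 2.3e-11) and differed from brain NSC by -2.76 ± 0.10, both on the log2 scale. Its other probe sets ranged from -4.15 to 0.12 against the arrays labelled iPS.

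Itga1, a collagen receptor chain, had 4.85, 5.12 and 5.11 on the arrays labelled iPS-derived NSC, 8.18, 8.16 and 8.27 on those labelled iPS and 7.19, 7.21, 7.28 and 6.85 on brain NSC arrays. The groups held separate levels, lowest in the arrays labelled iPS-derived NSC and highest in those labelled iPS. The differences were -3.18 ± 0.12 and -2.11 ± 0.11 for the arrays labelled iPS-derived NSC against those labelled iPS and against brain NSC. Between the arrays labelled iPS and brain NSC it was 1.08 ± 0.11 (adjusted p 4.46e-05), which passed the 2-fold limit only with brain NSC replicate 4, the lowest array of its group, and was 0.98 without it.

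Itga9, which encodes a receptor chain for tenascin-C, had 6.25, 6.32 and 6.52 in the arrays labelled iPS-derived NSC, against 8.11, 7.91 and 7.96 in those labelled iPS. Brain NSC, at 6.81, 6.99, 6.91 and 7.15, lay between these groups. It fell by 1.63 ± 0.11 in the first pair, while the arrays labelled iPS exceeded brain NSC by 1.03 ± 0.11, a value of 0.97 without iPS replicate 1 and 0.98 without brain NSC replicate 1. The difference between the arrays labelled iPS-derived NSC and brain NSC, -0.60 (adjusted p 0.000214), did not reach 2-fold. The other probe sets gave -1.21 and -0.01 in the first pair and 1.03 and 0.21 between the arrays labelled iPS and brain NSC, and both calls were lost over the mean of all probe sets (-0.95 and 0.76).

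The laminin receptor chains behaved differently from each other. Itga6, the partner of Itgb1 in the laminin receptor of neural stem cells, had 11.24, 11.39 and 11.18 on the arrays labelled iPS-derived NSC, 11.36, 11.22 and 11.27 on those labelled iPS and 11.41, 11.28, 11.28 and 11.20 on brain NSC arrays. All 10 arrays lay within a narrow range and the groups overlapped, with differences of -0.02 ± 0.10 and -0.02 ± 0.09 for the arrays labelled iPS-derived NSC against those labelled iPS and brain NSC (adjusted p 0.881 and 0.824). Itga7, best known as the laminin receptor chain of muscle, had 4.83, 4.60 and 4.71 on the arrays labelled iPS-derived NSC, 4.79, 4.74 and 4.80 on those labelled iPS and 5.85, 5.99, 5.36 and 6.59 on brain NSC arrays. Brain NSC was highest, with replicate 4 the highest array, and the other groups overlapped. The differences from brain NSC were -1.23 ± 0.20 for the arrays labelled iPS-derived NSC and -1.17 ± 0.20 for those labelled iPS (adjusted p 0.00157). The second was -0.95 and under 2-fold without brain NSC replicate 4, and the first was -1.02.

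Itga5, the alpha chain of the main fibronectin receptor, had 7.90, 7.10 and 8.14 on the arrays labelled iPS-derived NSC, 7.25, 7.50 and 7.40 on those labelled iPS and 6.42, 6.71, 6.60 and 7.90 on brain NSC arrays. Brain NSC replicate 4 lay within the other groups' range and the other 3 brain arrays below it. It was not called, at 0.33 ± 0.33 and 0.80 ± 0.31 for the arrays labelled iPS-derived NSC against those labelled iPS and against brain NSC. Without brain NSC replicate 4 the second difference was 1.13 with an adjusted p of 0.000192, which is past the threshold, and without iPS-derived NSC replicate 2 it was 1.11; the arrays labelled iPS exceeded brain NSC by 0.80 without brain NSC replicate 4. Itga3, another laminin receptor chain, depended on the probe set: it differed by 0.71 and 0.67 at its brightest probe set, and by 1.73 and 1.51 when probe sets that can cross-hybridise were left out. The remaining probe set, which was not left out either but was dimmer, gave 0.77 and 0.68. The other 4 alpha chains, Itga2, Itga2b, Itga8 and Itga10, were called in no comparison.

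The integrin beta chains, shared partners of the alpha chains, held the largest difference of the whole family, with 1 of 8 called higher and 2 called lower in the arrays labelled iPS-derived NSC against each other group, where 10.8% and 11.3% of all genes were called higher and 14.4% and 14% lower. Itgb8, which pairs with Itgav and is known to release active TGF-beta, had 3.18, 3.09 and 3.24 on the arrays labelled iPS-derived NSC, 10.62, 10.15 and 10.51 on those labelled iPS and 11.62, 11.57, 11.57 and 11.25 on brain NSC arrays. The level was at the floor on the arrays labelled iPS-derived NSC but among the bright genes on the other 7. The difference was -7.26 ± 0.13 against the arrays labelled iPS (adjusted p 3.1e-14) and -8.33 ± 0.12 against brain NSC (3.82e-15). No fold is given, as all 3 low values lie under the lower quartile of their arrays. The arrays labelled iPS were also lower than brain NSC, with a difference of -1.07 ± 0.12 (adjusted p 8.03e-05), and this value was -0.93 without iPS replicate 2 and -1.16 without brain NSC replicate 4.

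Itgb1, the partner of most alpha chains that bind collagen and laminin, had 9.66, 9.64 and 9.26 on the arrays labelled iPS-derived NSC, 10.81, 11.10 and 10.86 on those labelled iPS and 11.31, 11.52, 11.31 and 11.35 on brain NSC arrays. Brain NSC was highest and the arrays labelled iPS-derived NSC lowest, with no overlap between groups. Its difference was -1.40 ± 0.12 against the arrays labelled iPS (adjusted p 2.92e-07) and -1.85 ± 0.12 against brain NSC. The other bright probe set gave -0.96 and -1.71 in these comparisons, 1 dimmer one gave -0.68 and -1.20, and 3 others that averaged under 4.6 in every group ranged from -0.74 to 0.32. The mean of all probe sets gave -0.58 and -0.88, under 2-fold. Between the arrays labelled iPS and brain NSC the difference was -0.45 (adjusted p 0.0162), short of 2-fold.

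Of the integrins that the rule took, Itga3 and Itga5 were called higher on the arrays labelled iPS-derived NSC only under some alternatives. The 1 called higher as reported was Itgb7, a chain that white blood cells pair with alpha4. Its values were 7.25, 7.08 and 6.89 on the arrays labelled iPS-derived NSC, 5.54, 5.47 and 5.73 on those labelled iPS and 5.86, 5.51, 5.92 and 5.81 on brain NSC arrays. No array of the other groups reached those of the first, which exceeded the arrays labelled iPS by 1.49 ± 0.13 and brain NSC by 1.30 ± 0.12. Microglia and blood cell markers stood beside it as follows: 1 of 8 rose, Cd68, in each of these comparisons, and the summed linear level of the 8 was 388.2 to 432.0, against 282.7 to 284.7 in the arrays labelled iPS and 268.7 to 290.0 in brain NSC. Over all genes, 10.8% and 11.3% were called higher in these comparisons. The part of microglia and blood cells in the Itgb7 result was not tested.

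Itgb5, which pairs with Itgav to bind vitronectin, had 8.19, 7.87 and 8.44 on the arrays labelled iPS-derived NSC, 9.02, 9.04 and 9.05 on those labelled iPS and 7.06, 7.43, 7.30 and 8.03 on brain NSC arrays. The arrays labelled iPS were highest and nearly equal, and brain NSC was lowest apart from its replicate 4. The arrays labelled iPS exceeded brain NSC by 1.59 ± 0.19 (adjusted p 0.000102), and by 1.78 without that replicate. No call was made for the arrays labelled iPS-derived NSC against either group, at -0.87 and 0.71, although the first was -1.01 and past the threshold without iPS-derived NSC replicate 3. Itgb3, another partner of Itgav, had 5.27, 5.31 and 4.93 on the arrays labelled iPS-derived NSC, 4.51, 5.18 and 5.00 on those labelled iPS and 5.13, 4.86, 4.85 and 4.69 on brain NSC arrays; the groups overlapped and none of its differences was called. Itgb2, Itgb4 and Itgb6 were not called in any comparison.

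**Figure D3:**
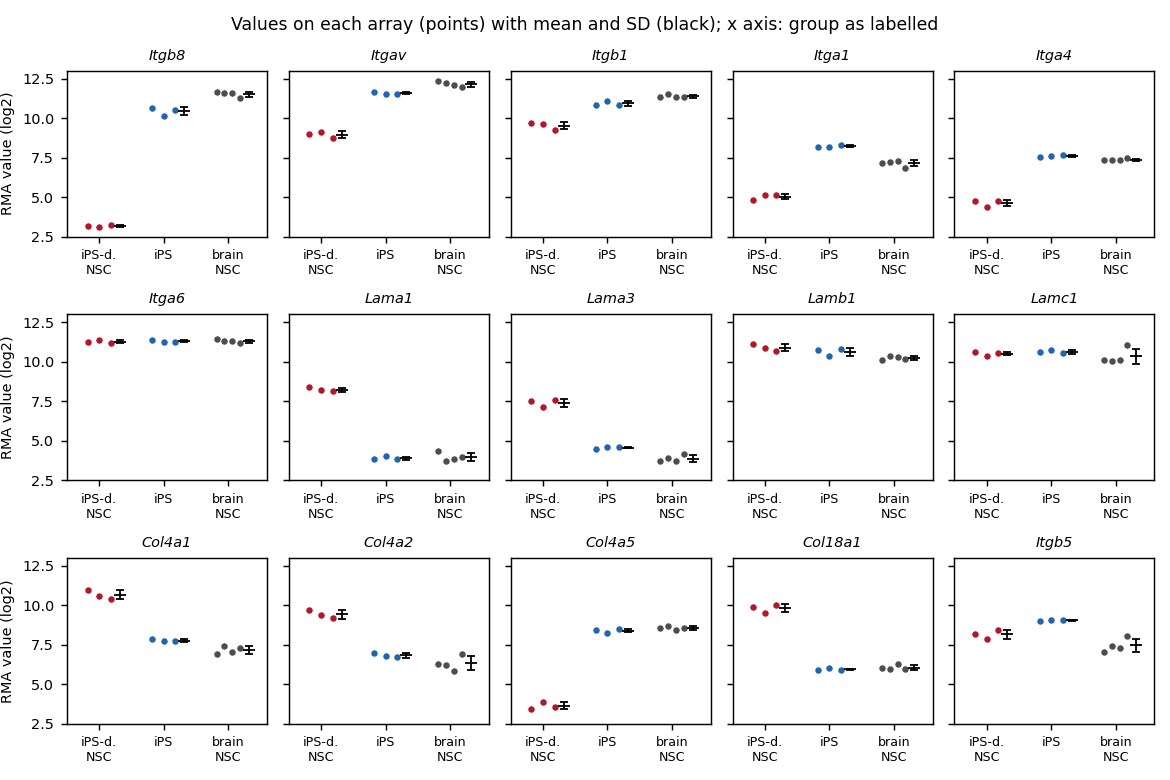
Log2 levels of single genes by array, with the arrays labelled iPS-derived NSC at the left of each panel, those labelled iPS in the middle and brain NSC at the right, where iPS-d. NSC stands for iPS-derived NSC, points are arrays, lines are means and bars are SD (n = 3, 3 and 4). Itgb8 is at 3.09 to 3.24 in the first group and at 10.15 or above elsewhere, while Itga6 stays between 11.18 and 11.41 throughout.

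Of the 10 laminin chains, 2 rose and 1 fell in the arrays labelled iPS-derived NSC against those labelled iPS, and 2 rose and 0 fell against brain NSC (limma; 1 lower at an unadjusted p under 0.05). In all 30% and 20% of the laminins were called, against 25.3% and 25.4% of all genes, which is near the background. Lama1, the alpha chain of the laminin of the earliest embryonic basement membranes, had 8.36, 8.19 and 8.12 on the arrays labelled iPS-derived NSC, 3.85, 4.01 and 3.83 on those labelled iPS and 4.35, 3.73, 3.82 and 3.94 on brain NSC arrays. Only the first group stood well above the lower quartile of the arrays. The difference, from values at the floor in the other groups, was 4.33 ± 0.14 against the arrays labelled iPS (adjusted p 9.16e-12) and 4.27 ± 0.13 against brain NSC (4.44e-12), and the levels of the 3 arrays differed little among themselves.

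Lama3, the alpha chain of the laminin that anchors epithelia, had 7.52, 7.11 and 7.54 on the arrays labelled iPS-derived NSC, 4.50, 4.59 and 4.60 on those labelled iPS and 3.72, 3.88, 3.70 and 4.14 on brain NSC arrays. The first group was again above the other 7 arrays, of which all those of brain NSC lay under the lower quartile. It exceeded the arrays labelled iPS by 2.83 ± 0.14 and brain NSC by 3.53 ± 0.13. A second probe set of Lama3 gave 0.26 and 0.14, so this rise rests on 1 probe set. Lamb3, a beta chain found with Lama3 in epithelial laminin, moved the other way: its levels were 4.64, 5.00 and 4.87 in the arrays labelled iPS-derived NSC, against 5.84, 5.87 and 5.87 in those labelled iPS. All 3 of the first were lower, with a difference of -1.02 ± 0.13 (adjusted p 8.58e-06), a difference of -0.92 without iPS-derived NSC replicate 1. Brain NSC had 5.43, 5.82, 5.67 and 5.39, which the first group did not reach either (-0.74, short of 2-fold).

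The widespread laminin chains showed smaller differences. Lamb1, the common beta chain, had 11.09, 10.87 and 10.69 on the arrays labelled iPS-derived NSC, 10.73, 10.33 and 10.79 on those labelled iPS and 10.11, 10.36, 10.26 and 10.19 on brain NSC arrays. The first group overlapped the second but not brain NSC, which it exceeded by 0.65 ± 0.13 (adjusted p 0.000503). Lamc1, the gamma chain of most laminins, had 10.61, 10.37 and 10.54 on the arrays labelled iPS-derived NSC, 10.58, 10.75 and 10.52 on those labelled iPS and 10.08, 10.07, 10.12 and 11.05 on brain NSC arrays. Brain NSC replicate 4 was the highest of all 10 arrays and the other 3 brain arrays were the lowest, so the differences from brain NSC were 0.18 and 0.29 with that array and 0.42 and 0.53 without it, for the arrays labelled iPS-derived NSC and iPS. Lama5, the alpha chain of a laminin used as a substrate for pluripotent cells, had 8.82, 8.30 and 8.51 on the arrays labelled iPS-derived NSC, 9.15, 8.83 and 8.95 on those labelled iPS and 7.83, 8.68, 8.06 and 8.74 on brain NSC arrays. The arrays labelled iPS were the highest and did not overlap the other groups, which overlapped each other. The differences of -0.43 ± 0.22 against the arrays labelled iPS and 0.22 ± 0.20 against brain NSC for the arrays labelled iPS-derived NSC were not called. Lama2, Lama4, Lamb2 and Lamc3 were called in no comparison.

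Type IV collagen, the network former of basement membranes, split by its chain pairs. Col4a1 and Col4a2, whose products join in 1 trimer, both rose in the arrays labelled iPS-derived NSC; Col4a5 fell; and Col4a3, Col4a4 and Col4a6 were not called. These genes lie in head-to-head pairs, and the windows around their starts are printed here because the pairs differ in how their members moved. Each window holds 250 bases before and 50 bases after the transcription start in RefSeq (GRCm38.p6), 5′ to 3′ on the gene's own strand. Col4a1 lies at chr8:11312777-11313076 on the minus strand, Col4a2 at chr8:11312555-11312854 on the plus strand, Col4a5 at chrX:141475169-141475468 on the plus strand and Col4a6 at chrX:141474027-141474326 on the minus strand. Capitals mark a GC box (GGGCGG on either strand), a CCAAT box (CCAAT on either strand) or a TATA box (TATAAA on the gene's strand). A box on the other strand is printed as its complement, ATTGG or CCGCCC.
Col4a1: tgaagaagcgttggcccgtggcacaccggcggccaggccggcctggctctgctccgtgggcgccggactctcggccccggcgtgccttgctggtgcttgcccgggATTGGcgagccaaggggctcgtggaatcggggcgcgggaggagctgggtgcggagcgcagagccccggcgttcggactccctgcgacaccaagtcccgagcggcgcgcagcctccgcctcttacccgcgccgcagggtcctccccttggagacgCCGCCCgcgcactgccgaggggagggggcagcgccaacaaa
Col4a2: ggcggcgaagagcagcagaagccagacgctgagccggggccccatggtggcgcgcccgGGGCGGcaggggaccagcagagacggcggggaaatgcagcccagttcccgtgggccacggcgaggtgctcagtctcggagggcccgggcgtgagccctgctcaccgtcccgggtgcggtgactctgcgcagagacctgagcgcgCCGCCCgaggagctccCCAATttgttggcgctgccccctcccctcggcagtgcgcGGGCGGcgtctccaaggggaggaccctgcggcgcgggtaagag
Col4a5: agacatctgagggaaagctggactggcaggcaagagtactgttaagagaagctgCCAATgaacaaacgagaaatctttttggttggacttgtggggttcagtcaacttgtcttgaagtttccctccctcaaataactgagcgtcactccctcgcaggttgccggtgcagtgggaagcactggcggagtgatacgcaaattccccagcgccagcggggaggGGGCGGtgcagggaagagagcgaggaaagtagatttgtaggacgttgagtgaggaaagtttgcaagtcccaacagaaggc
Col4a6: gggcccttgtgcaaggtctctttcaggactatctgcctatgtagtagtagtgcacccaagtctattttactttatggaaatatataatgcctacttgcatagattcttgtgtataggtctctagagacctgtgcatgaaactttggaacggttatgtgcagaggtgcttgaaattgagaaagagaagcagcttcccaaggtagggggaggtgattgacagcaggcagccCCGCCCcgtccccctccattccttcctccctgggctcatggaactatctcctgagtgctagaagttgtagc

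The starts of Col4a1 and Col4a2 are 21 bases apart and their windows share 78 bases, whereas those of Col4a5 and Col4a6 are 1343 bases apart with no shared base. The Col4a1 window holds 37 CpG pairs and the Col4a2 window 33, against 11 for Col4a5 and 3 for Col4a6, and a median of 7.0 over the 32851 promoter windows of the table. Col4a2 has 3 GC boxes and a CCAAT box whose first base lies at -32 from the start, counted as 0, and Col4a1 has 1 GC box and a CCAAT box at -145 on the opposite strand. The GC box at 7 in the Col4a2 window and that at 9 in the Col4a1 window are the same bases read from either strand, and no other matches in these windows overlap. A GC box occurs in 35.7% of all the windows, a CCAAT box in 37.4% and a TATA box in 8.32%. For 53 of the 72 genes the table held a window (59 in all), of which 33 had a GC box, 16 a CCAAT box and 5 a TATA box. These matches describe letters and say nothing of binding.

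Col4a1 had 10.95, 10.60 and 10.39 on the arrays labelled iPS-derived NSC, 7.85, 7.70 and 7.73 on those labelled iPS and 6.91, 7.43, 7.02 and 7.28 on brain NSC arrays. The arrays labelled iPS-derived NSC were the highest by a wide margin, and those labelled iPS lay above brain NSC. It rose by 2.89 ± 0.15, or 7.39-fold, against the arrays labelled iPS (adjusted p 1.21e-09) and by 3.49 ± 0.14 against brain NSC (7e-11). A second probe set gave 2.76 and 2.79 on the log2 scale. Col4a2 had 9.69, 9.37 and 9.17 on the arrays labelled iPS-derived NSC, 6.995, 6.80 and 6.69 on those labelled iPS and 6.29, 6.24, 5.85 and 6.91 on brain NSC arrays. The order of the groups was that of Col4a1, except that brain NSC replicate 4 overlapped the arrays labelled iPS. The rises were 2.58 ± 0.21 and 3.09 ± 0.20 (adjusted p 1.37e-07 and 8.65e-09).

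Between the arrays labelled iPS and brain NSC, Col4a1 differed by 0.60 ± 0.14 (adjusted p 0.0101) and Col4a2 by 0.51 ± 0.20 (0.0913), both short of 2-fold. Without brain NSC replicate 4 these were 0.64 and 0.71, with adjusted p values of 0.00472 and 0.00221. The second probe set of Col4a1 gave 0.03 with all arrays, so its difference here rests on 1 probe set. Both genes lie on chromosome 8, where the 932 genes tested had a median difference of 0.18 in this comparison, against 0.00 for genes on other chromosomes, and 74% of them were above 0. Itgb1, on the same chromosome, went the other way. The part of this chromosome-wide shift in the type IV collagen values was not tested.

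Col4a5, a chain of the kidney and smooth muscle networks that is also made in the nervous system, had 3.45, 3.88 and 3.58 on the arrays labelled iPS-derived NSC, 8.43, 8.26 and 8.48 on those labelled iPS and 8.54, 8.67, 8.40 and 8.53 on brain NSC arrays. All 3 arrays labelled iPS-derived NSC were under the lower quartile, while the other 7 lay together far above. Its difference was -4.75 ± 0.12 against the arrays labelled iPS (adjusted p 6.4e-13) and -4.90 ± 0.11 against brain NSC, with no fold given over values at the floor. Another probe set gave -1.65 and -1.91. Its neighbour Col4a6 had 5.75, 5.79 and 5.78 on the arrays labelled iPS-derived NSC, 5.93, 6.25 and 5.94 on those labelled iPS and 6.39, 6.54, 6.35 and 6.75 on brain NSC arrays. It was lower than in brain NSC by less than 2-fold in both other groups, at -0.73 in the arrays labelled iPS-derived NSC and -0.46 in those labelled iPS.

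Itgb8, the gene with the largest fall, has its window at chr12:119238227-119238526 on the minus strand, shown for the contrast with the CpG-rich Col4a1 and Col4a2 windows. It holds 13 CpG pairs, no GC box and 1 CCAAT box, in capitals.
Itgb8: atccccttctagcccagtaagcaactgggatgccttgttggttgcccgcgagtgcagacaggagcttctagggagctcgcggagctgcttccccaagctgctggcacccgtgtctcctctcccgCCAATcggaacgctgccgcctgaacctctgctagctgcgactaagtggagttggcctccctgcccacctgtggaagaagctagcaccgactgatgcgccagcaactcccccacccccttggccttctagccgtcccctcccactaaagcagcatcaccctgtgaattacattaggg

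Among the fibrillar collagens, 4 of 11 rose and 1 fell in the arrays labelled iPS-derived NSC against those labelled iPS, and 5 rose and 1 fell against brain NSC. The share called higher was 36.4% against 10.8% of all genes in the first comparison, and 45.5% against 11.3% in the second. These shares of 11 genes were not tested, and both come from the same 3 arrays labelled iPS-derived NSC. Col1a2, a chain of type I collagen, the main collagen of connective tissue, had 9.75, 8.56 and 8.02 on the arrays labelled iPS-derived NSC, 5.84, 6.14 and 5.86 on those labelled iPS and 5.74, 5.80, 5.87 and 5.83 on brain NSC arrays. Every array of the first group was above the other 7, but the 3 were spread over more than a unit. It rose by 2.83 ± 0.30 against the arrays labelled iPS (adjusted p 1.85e-06) and by 2.97 ± 0.28 against brain NSC (5.12e-07). Of its 2 other probe sets, 1 gave 3.37 in the first of these and 1 gave 0.08.

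Col1a1, the other type I chain, had 7.52, 6.35 and 6.10 on the arrays labelled iPS-derived NSC, 5.21, 5.23 and 5.28 on those labelled iPS and 5.19, 5.00, 5.22 and 5.15 on brain NSC arrays. Replicate 1 of the first group was the highest array and the other 7 arrays were level. The rises were 1.42 ± 0.26 (adjusted p 0.000317) and 1.52 ± 0.24 (8.98e-05) against the arrays labelled iPS and against brain NSC, and the first was 0.98 without iPS-derived NSC replicate 1. Col3a1, whose product forms fibres with type I collagen, had 7.44, 7.14 and 5.12 on the arrays labelled iPS-derived NSC, 3.44, 3.91 and 3.51 on those labelled iPS and 3.68, 3.41, 3.78 and 3.62 on brain NSC arrays. Replicate 3 was far below replicates 1 and 2 in the first group, yet above all arrays of the other groups, which lay under the lower quartile. Its rises were 2.95 ± 0.42 and 2.94 ± 0.40 (adjusted p 3.62e-05 and 1.8e-05), each 1.65 times larger in fold without that replicate, at 3.67 and 3.66 on the log2 scale. A second probe set of Col3a1 gave 0.80 and 0.74.

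Col5a2, a chain of the type V collagen that starts fibrils, had 8.55, 8.29 and 7.53 on the arrays labelled iPS-derived NSC, 8.06, 8.01 and 7.99 on those labelled iPS and 6.74, 6.50, 6.45 and 6.54 on brain NSC arrays. No brain NSC array reached the other groups, which overlapped each other. The differences from brain NSC were 1.56 ± 0.18 (adjusted p 4.33e-06) and 1.46 ± 0.18 (0.000149). Another probe set gave 0.14 and 0.78, and over the mean of both the first difference was 0.85, under 2-fold. Col5a3, another type V chain, had 5.87, 5.63 and 5.29 on the arrays labelled iPS-derived NSC, 6.73, 6.54 and 6.48 on those labelled iPS and 5.48, 5.38, 5.67 and 5.67 on brain NSC arrays. The arrays labelled iPS were above the other 7, by 1.03 ± 0.13 against brain NSC (adjusted p 0.000185), a call lost without iPS replicate 1 (0.96) or brain NSC replicate 2 (0.98), over the mean of its probe sets (0.64) and in limma's treat against 1.5-fold (adjusted p 0.172). Its other probe set gave 0.24. Against the arrays labelled iPS, those labelled iPS-derived NSC differed by -0.98 ± 0.14, just short of 2-fold, and passed it without iPS replicate 2 or 3 (-1.005 and -1.037) or iPS-derived NSC replicate 1 or 2 (-1.121 and -1.0002).

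Col11a1, a fibrillar chain known from cartilage, was the 1 fibrillar collagen that fell. It had 4.42, 4.73 and 4.21 on the arrays labelled iPS-derived NSC, 6.28, 6.54 and 6.38 on those labelled iPS and 6.53, 7.08, 6.47 and 6.63 on brain NSC arrays. The arrays labelled iPS-derived NSC were lowest without overlap, at -1.94 ± 0.16 against those labelled iPS and -2.22 ± 0.15 against brain NSC. Its partner chain Col2a1, the type II collagen of cartilage, rose by 1.02 ± 0.12 and 1.13 ± 0.12, close to the 2-fold limit. The first of these was 0.96 and 0.93 without iPS replicates 1 and 3, and 0.97 and 0.99 without iPS-derived NSC replicates 1 and 2. Col5a1, Col11a2, Col24a1 and Col27a1 were called in no comparison. Other probe sets of Col5a1 gave 1.37 and 0.23 for the arrays labelled iPS-derived NSC against brain NSC.

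Fibroblast collagens can reach a culture from feeder cells, so markers of fibroblasts that are no collagens were read beside them. These are bulk samples, in which fewer cells of a type and less RNA per cell cannot be told apart. Of 18 such markers, 5 rose and 2 fell in the arrays labelled iPS-derived NSC against those labelled iPS, and 6 rose and 1 fell against brain NSC. Over all genes, 10.8% and 11.3% were called higher in these comparisons and 14.4% and 14% lower. The summed linear level of the 18 markers was 2749.0, 2273.8 and 1634.4 on the arrays labelled iPS-derived NSC, 984.8 to 1039.0 on those labelled iPS and 973.9 to 1044.9 on brain NSC arrays. The raised sums were thus on the arrays that also held the pluripotency markers, while the MEF layer is named in the growth protocol of the arrays labelled iPS. Such sums mostly reflect the brightest genes, here Acta2, Pdgfra and Tagln, none of which is among the defining markers below. Their mean log2 levels were 9.37, 9.36 and 7.55 on the arrays labelled iPS-derived NSC and 7.69, 6.96 and 5.32 on those labelled iPS. The array with the highest sum had the highest Col1a1, Col1a2, Col3a1, Col5a2 and Col6a1 of its group, and the array with the lowest sum had the lowest. Lama1, Col4a1 and Col4a2 kept the same order over a narrower range, and Col18a1 did not keep it. The order was not particular to the fibroblast markers. The sum of the primitive and parietal endoderm markers, given below, had it too, at 2525.7, 1953.6 and 1760.9. Of its bright genes, Dab2 (9.82, 9.21 and 8.99) and Cubn (9.06, 8.27 and 7.79) kept this order, and neither is among its defining markers. Of the defining ones Gata4 kept it (6.20, 6.00 and 5.90). Gata6 (8.48, 8.59 and 8.53), Sox17 (7.62, 7.72 and 7.43) and Sox7 did not.

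The 6 defining fibroblast markers differed from each other. Thy1 was 6.61, 6.22 and 6.00 in the arrays labelled iPS-derived NSC, against 4.40, 4.68 and 4.47 in those labelled iPS, a rise of 1.76 ± 0.15, and Postn rose by 1.06 ± 0.18 against brain NSC, with 0.94 against the arrays labelled iPS, short of 2-fold. Prrx1 fell, at -1.95 ± 0.17 against the arrays labelled iPS and -2.18 ± 0.16 against brain NSC. Dcn and Twist2 were not called, and Lum was under the lower quartile on all 10 arrays. Pdgfra, which primitive endoderm also makes, rose by 2.40 ± 0.17 and 2.69 ± 0.16. The part of feeder cells in the collagen values was not tested.

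**Figure D4:**
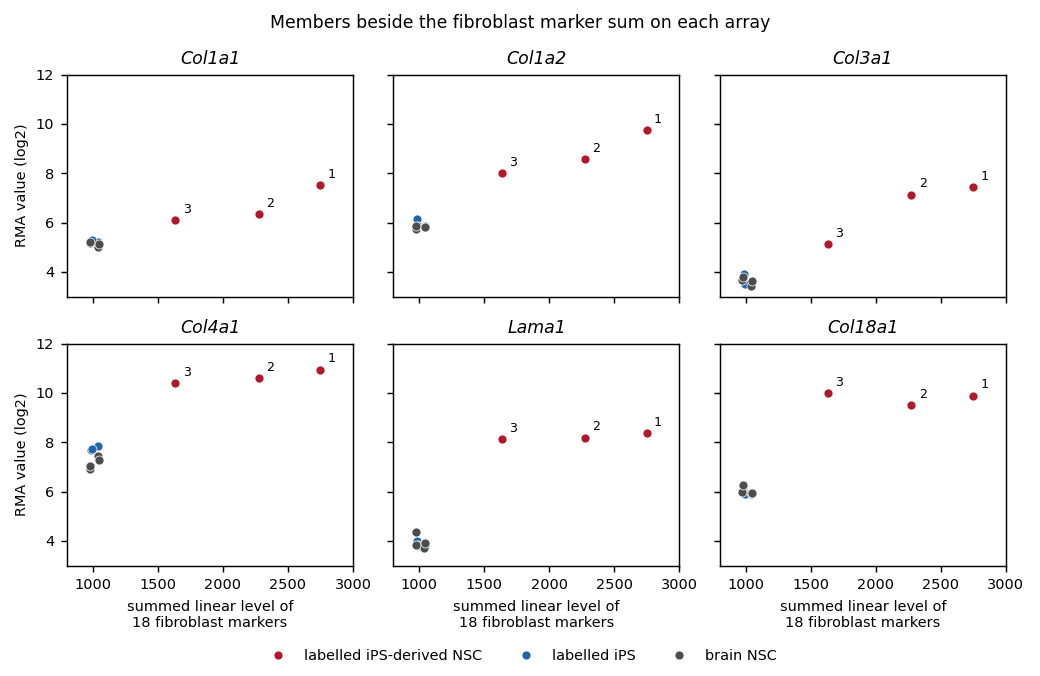
Log2 levels of Col1a1, Col1a2, Col3a1, Col4a1, Lama1 and Col18a1 against the summed linear level of the 18 fibroblast markers that are not collagens, 1 point per array, coloured by group and numbered by replicate in the arrays labelled iPS-derived NSC. The 3 arrays labelled iPS-derived NSC have sums of 1634.4 to 2749.0, and the other 7 arrays lie together at 973.9 to 1044.9. Acta2, Pdgfra and Tagln were the brightest of the 18 markers on the arrays labelled iPS-derived NSC.

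Primitive and parietal endoderm, the extraembryonic cells known for laminin and type IV collagen, gave a second set of markers. Of its 11 genes, 6 rose against the arrays labelled iPS and 7 against brain NSC. Over all genes, 10.8% and 11.3% were called higher in these comparisons and 14.4% and 14% lower. The sum of the 11 genes was 2525.7, 1953.6 and 1760.9 on the arrays labelled iPS-derived NSC, 552.3 to 596.0 on those labelled iPS and 466.6 to 534.1 on brain NSC arrays. Of the 4 defining genes, Gata6 rose by 3.52 ± 0.12 and 3.66 ± 0.11, Sox17 by 2.26 ± 0.17 and 2.18 ± 0.16, and Gata4 by 1.19 ± 0.13 and 1.10 ± 0.12, while Sox7 was not called. None of these 4 was under the lower quartile on every array of a group. Endothelium and pericyte markers gave 2 rises (Pecam1 and Eng) and 1 fall (Cspg4) of 12 against the arrays labelled iPS. Their sum was 933.6 to 1023.8 on the arrays labelled iPS-derived NSC, 639.4 to 711.5 on those labelled iPS and 591.4 to 683.3 on brain NSC arrays. None of the 4 defining ones (Cdh5, Tek, Tie1 and Emcn) was called there. Of these, 2 lay under the lower quartile on every array labelled iPS-derived NSC. The part of either cell type in the laminin and collagen values was not tested.

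Of the remaining collagens, Col18a1, Col13a1, Col6a1 and Col6a4 were called in at least 1 comparison. Col18a1, a basement membrane collagen from which endostatin is cut, had 9.89, 9.51 and 10.00 on the arrays labelled iPS-derived NSC, 5.92, 5.99 and 5.88 on those labelled iPS and 6.00, 5.96, 6.29 and 5.94 on brain NSC arrays. The first group stood above the other 7 arrays, which were level. It rose by 3.87 ± 0.13, or 14.6-fold, against the arrays labelled iPS (adjusted p 1.29e-11) and by 3.75 ± 0.12 against brain NSC (7.27e-12), and a second probe set gave 4.28 and 4.25. Col13a1, a collagen that spans the cell membrane, had 5.01, 5.17 and 5.54 on the arrays labelled iPS-derived NSC, 4.09, 4.13 and 4.05 on those labelled iPS and 4.29, 4.19, 4.15 and 4.24 on brain NSC arrays. On all arrays labelled iPS and on 3 brain NSC arrays it lay under the lower quartile. All 3 arrays of the first group were higher, by 1.15 ± 0.12 and 1.02 ± 0.11, against the arrays labelled iPS and brain NSC. These came to 0.999 and 0.872 without iPS-derived NSC replicate 3, and the second to 0.999 without brain NSC replicate 3, all under 2-fold.

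Among the 5 type VI chains, which form beaded microfibrils, Col6a1 had 6.23, 5.60 and 4.68 on the arrays labelled iPS-derived NSC, 6.29, 6.34 and 6.56 on those labelled iPS and 6.75, 7.01, 6.74 and 7.43 on brain NSC arrays. The first group was spread over more than a unit, with replicate 3 the lowest, and none of its arrays reached brain NSC. It fell by 1.48 ± 0.28 (adjusted p 0.00034) against brain NSC. The difference from the arrays labelled iPS, -0.89, was not called but reached -1.26 without iPS-derived NSC replicate 1. Col6a4 had 5.99, 5.96 and 5.90 on the arrays labelled iPS-derived NSC, 4.42, 4.90 and 4.73 on those labelled iPS and 5.13, 5.23, 5.30 and 5.23 on brain NSC arrays. The first group was higher than the arrays labelled iPS by 1.27 ± 0.12, a rise of 0.75 over the mean of its probe sets, and the difference from brain NSC was 0.73. Col6a2, Col6a3 and Col6a5 were called in no comparison, nor were 18 of the 20 chains outside the fibrillar, type IV and type VI groups. Some of these had another probe set past 2-fold for the arrays labelled iPS-derived NSC against those labelled iPS and brain NSC. They were Col9a1 (-1.08 and -1.37), Col9a3 (-1.16 and -1.26) and Col8a1 (1.40 and 1.35). A dimmer probe set of Col12a1 gave -1.05 for the arrays labelled iPS against brain NSC.

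In the comparison of the arrays labelled iPS with brain NSC, 1.84% of all genes were called, and the 7 calls of the family were integrins and fibrillar collagens. At that share, 0 calls in a group as small as the laminins is near the background. Itgb5, Col5a2, Itga1, Col5a3 and Itga9 rose and Itga7 and Itgb8 fell, while 0 laminins were called in limma (5 higher and 0 lower at an unadjusted p under 0.05). Of the 7, only Itgb5 and Col5a2 were called under every alternative tried. Lama3 (0.70), Lama5 (0.65), Lamb2 (0.44) and Lamb1 (0.38) were higher in the arrays labelled iPS with adjusted p values of 0.00211, 0.0388, 0.0465 and 0.0489, short of 2-fold. Lamb1 was at 0.37 with an adjusted p of 0.0504 without brain NSC replicate 4.

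Of the 72 genes, 46 were called in no comparison. Of these, 7 (Col4a4, Col6a5, Col8a2, Col17a1, Col24a1, Itgb2 and Itgb6) lay under the lower quartile on all 10 arrays, and the other 39 had at least 1 array at or above it. Over the 10 arrays 35 genes averaged 6 or more and 37 less. Sorted by textbook ligand, the 8 chains of receptors for the RGD motif gave 0 rises and 2 falls in the arrays labelled iPS-derived NSC against those labelled iPS (Itgav and Itgb8), the 4 laminin receptor chains 0 and 0, the 3 collagen receptor chains 0 and 1 (Itga1), and the group of Itga4, Itga9 and Itgb7 1 rise (Itgb7) and 2 falls. In this comparison 10.8% of all genes were called higher and 14.4% lower, and classes this small cannot be told from those shares.

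Other genes of the same pathway were counted from lists. For the arrays labelled iPS-derived NSC, each count reads against 10.8% of all genes called higher and 14.4% lower relative to those labelled iPS. Relative to brain NSC these shares were 11.3% and 14%. Of 23 collagen-processing enzymes and chaperones, 5 rose and 8 fell in the arrays labelled iPS-derived NSC against those labelled iPS, and 5 rose and 6 fell against brain NSC. The largest were P4ha2, a prolyl hydroxylase subunit (2.99 ± 0.11), and P3h3, a prolyl 3-hydroxylase (-2.52 ± 0.14), in the first comparison, and Pcolce, an enhancer of procollagen cleavage (3.52 ± 0.12), and P3h2 (-2.34 ± 0.15) in the second. Of 13 basement membrane partners, 2 rose and 3 fell, then 3 and 3, with Nid1, the nidogen that joins laminin to type IV collagen, at 4.02 ± 0.20 and 3.39 ± 0.19, and Ntn4, a netrin of basement membranes, at -5.36 ± 0.14 and -4.97 ± 0.13.

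Of 18 other integrin ligands, 5 rose and 4 fell, then 6 and 4. Icam1, a ligand of leukocyte integrins, differed by 5.34 ± 0.11 against the arrays labelled iPS, and Ccn2, a matricellular protein, by 5.64 ± 0.12 against brain NSC. Tnc, the tenascin-C of neural stem cell niches, fell, at -5.45 ± 0.26 and -5.53 ± 0.24. Of 20 cytoplasmic partners of integrins, 2 rose and 5 fell, then 3 and 3, with Actn1, an actin cross-linker, at 2.52 ± 0.10 and 2.25 ± 0.10, and Parva, a partner of the integrin-linked kinase, at -3.90 ± 0.13 and -3.90 ± 0.12. Between the arrays labelled iPS and brain NSC, 0.951% of all genes were called higher and 0.89% lower. There 2 processing genes rose, P3h3 (1.34 ± 0.13) and Pcolce (1.18 ± 0.12). In the other 3 lists 0 genes were called in limma, which lists this small cannot tell from those shares. At an unadjusted p under 0.05 in limma, partners, ligands and cytoplasmic partners had 6, 3 and 10 higher and 2, 3 and 1 lower.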

How the data were processed

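Values deposited by the authors are log2 levels of probe sets. Per the submitters' processing notes they were computed with RMA (version: not given in the sources used here). This method corrects background and aligns the arrays' distributions, so a shift shared by most genes would be largely removed and differences of dim genes are compressed. The table held 45101 probe sets, 34945 with 1 gene symbol in the platform annotation, 932 with several and 9160 with none. Each of 18193 genes was read from the probe set with the highest mean over 10 arrays. Precision is limited by the number of arrays, which carry no read depth.

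Differences were fitted with limma 3.58.1 (lmFit, eBayes) in R 4.3.3 over 3 groups and all genes, with 7 residual and 5.95 prior degrees of freedom, two-sided, Benjamini-Hochberg adjusted over all genes. Errors are moderated SE. The fit was tested on simulated data. Groups came from sample titles, and lower quartiles from all probe sets of an array. Summed levels add 2 to the power of each log2 value. Summaries used numpy 2.4.6 and pandas 2.3.3 under Python 3.11.15, and plots matplotlib 3.10.9. Promoter windows came from RefSeq tables of GRCm38.p6; motifs were counted by exact match.

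The members and the lists were chosen with earlier results of these data known. Array values were printed for 31 genes: 14 fixed receptor and ligand genes, and per comparison and role the 2 called members with the largest rise and the 2 with the largest fall. From each pathway list the largest called rise and fall were named. Alternatives were other probe sets, a filter on dim genes, other scalings, other fits and leaving out each array.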

Additional observations from a re-analysis of the deposited data

Results flagged for a closer look

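In brain NSC, the only group of 4 arrays, each gene was checked for 1 array far from the other 3 by Dixon's test. It marked 4 of the 72 genes, and chance marks about 1 in 20 groups, so this number is near that rate. Lamc1 was 11.05 in brain NSC replicate 4, against 10.07 to 10.12 in the other brain arrays. Itgb8 was 11.25 in the same replicate, against 11.57 to 11.62, and Col26a1 was 4.15, against 3.87 to 3.91, near the floor of the arrays. Itgb4 was 4.71 in replicate 3, against 4.88 to 4.89.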

How the results depend on the processing

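No called gene reversed its direction under any alternative run. Of the called genes, 14 of 21 were called under every alternative that tested them for the arrays labelled iPS-derived NSC over those labelled iPS, 18 of 21 over brain NSC, and 2 of 7 for the arrays labelled iPS over brain NSC. Restricting the test to genes averaging at least 6 left 35 of the 72 and gave 6 higher calls (12 as reported) against the arrays labelled iPS and 7 (12) against brain NSC, since fewer genes were tested, and 1 lower call (2) for the arrays labelled iPS over brain NSC. In that last comparison the mean of all probe sets gave 3 higher calls (5), and treat against 1.5-fold gave 3 higher and 0 lower, with 2 lower at an unadjusted p under 0.05 in treat; the cause was not tested. Over all genes the same comparison had 335 calls, 223 over the mean of all probe sets, 183 in treat and 537 without brain NSC replicate 4 or with the block. With the replicate number as a block, 12 rose and 9 fell against the arrays labelled iPS, 13 and 9 against brain NSC, and 4 and 1 for the arrays labelled iPS over brain NSC. The numbers did not pair the arrays: deviations of same-numbered arrays correlated at -0.21 to 0.13, and since brain NSC replicate 4 has no partner, the block gives the differences from brain NSC without it. Leaving out 1 array gave 10 to 12 higher and 9 to 10 lower against the arrays labelled iPS, 11 to 13 higher and 9 to 9 lower against brain NSC, and 3 to 5 higher and 1 to 2 lower for the arrays labelled iPS over brain NSC. The lowest of the last came without iPS replicate 1 (Itga9 0.97, Col5a3 0.96), and without iPS replicate 2 (Itgb8 -0.93) or brain NSC replicate 4 (Itga7 -0.95, Itga1 0.98). Itga9 was also lost there without brain NSC replicate 1 (0.98). Col2a1 against the arrays labelled iPS was 0.97 under median centring, and Col13a1 against brain NSC 0.99 there and 0.92 under quantile normalization. Quantile normalization added calls for Itga8 (-1.01) and Col5a3 (-1.0004) against the arrays labelled iPS and for Itga5 (1.02) against brain NSC. With 3 to 4 arrays a group and no detection calls, small differences of dim genes cannot be judged.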
